A study of Mus musculus with 6 samples.

Results

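The EGR, NAB and IER serum-response genes were 10 genes read by 17 probes: Egr1, Egr2, Egr3, Egr4, Nab1, Nab2, Ier2, Ier3, Ier5 and Srf. They were taken as every probe whose single gene symbol is 1 of these names, out of 29456 probes with a single symbol and 38467 probes in all. Nab1 had 4 probes, Egr3, Nab2, Ier3 and Srf had 2 each, and the other members had 1. The cells were C3H10T1/2, an established mouse mesenchymal line grown in medium with serum. Cultures in the vehicle group received the solvent DMSO, and cultures in the dexamethasone group received 1 µM dexamethasone, a synthetic glucocorticoid, for 90 minutes. Each group had 3 arrays, described for the series as biological replicates. On every 2-colour array the RNA of a culture carried Cy3 and a common pool of RNA carried Cy5. The sample labels name cells given DMSO, dexamethasone or myostatin as sources of the pool, whereas the series' design text leaves myostatin out.

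The EGR and IER members and Srf belong to the first wave of genes that cells switch on when serum or a growth factor activates the ERK MAP kinase cascade. Srf encodes serum response factor, a transcription factor that binds the CArG box in the promoters of such genes together with ternary complex factors of the ETS family (Elk1, Elk3, Elk4) or with myocardin-related cofactors. The EGR genes encode zinc finger transcription factors that bind GC-rich sites, and the NAB proteins bind most EGR factors and repress their activity; Nab2 is itself an EGR target. The IER genes are named for their immediate early induction, and Ier2 and Ier5 encode related proteins, while Ier3 encodes an unrelated regulator of cell survival.

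The CArG boxes in the promoters of Egr2 and Srf are shown because these are the sites through which Srf is known to act on immediate early genes and on itself. Promoter windows from RefSeq (assembly GRCm38.p6, 250 bases before to 50 bases after an annotated start) were searched for 7 of the 10 members: Egr2, Egr4, Nab1, Nab2, Ier3, Ier5 and Srf. The promoters of Egr1, Egr3 and Ier2 were not searched, so nothing is said here of their motifs. Each sequence below runs 5′ to 3′ on the gene's strand, with the CArG box in capitals. The Egr2 sequences lie at chr10:67537484-67537513 and chr10:67537787-67537816 on the plus strand, each box beginning 72 bases before an annotated start, and the Srf sequences at chr17:46556225-46556254 and chr17:46556205-46556234 on the minus strand, beginning 82 and 62 bases before the start.
Egr2, first box: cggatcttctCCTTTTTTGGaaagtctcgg
Egr2, second box: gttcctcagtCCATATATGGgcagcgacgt
Srf, first box: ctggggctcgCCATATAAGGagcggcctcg
Srf, second box: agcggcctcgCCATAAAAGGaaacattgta
A CArG box on either strand occurred in windows of these 2 of the 7 members searched, in 4 of 5 windows of Egr2 and in the 1 window of Srf. The share over all genes is counted by window and not by gene, and was 1.63% of 32851 windows. The EGR site GCGNGGGCG occurred in the windows of Nab1 and Srf, against 5.55% of all windows. Neither the palindromic glucocorticoid response element (0.475% of all windows) nor the cAMP response element TGACGTCA (1.79%) was matched in a window of these 7 members. These motifs were searched on both strands; a match describes letters and no binding was measured.

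Each value was read as the log2 ratio of sample over pool, so a level is relative to the pool and cannot be set against that of another gene. That direction is likely but not settled: of 6 known glucocorticoid targets, Dusp1, Fkbp5, Per1, Tsc22d3 and Sgk1 had higher values with dexamethasone when read this way and Zbtb16 did not. Zbtb16 had no value on dexamethasone replicate 3, and its difference was -0.40 ± 1.01 (SE). With the opposite reading every higher and lower in the text would change places. Vehicle replicate 2 and dexamethasone replicate 3 were the least alike, with a Spearman coefficient of -0.33 across all probes. The arrays were unequal. Missing probes ran from 552 to 932 on the vehicle arrays and from 1695 to 4290 on the dexamethasone arrays, the array medians ran from -0.12 to 0.57, and the median difference between dexamethasone and vehicle over the 27046 genes and unnamed probes tested was 0.32 on the log2 scale. The SD was larger in the dexamethasone group for all 10 members and for 80.7% of all genes and unnamed probes. Of the mesenchymal markers Col1a1, Col1a2, Col3a1, Col5a1, Vim, Thy1, Pdgfrb, S100a4, Fn1 and Sparc, 10 of 10 had a probe free of low signal, against 1 of 5 measured blood, 2 of 4 endothelial and 2 of 4 epithelial markers. The marker lists also differed in direction: 8 of the 10 mesenchymal markers had differences below 0, with a median of -0.32, while the blood, endothelial and epithelial markers had medians of 1.19, 1.25 and 1.16, and 0 markers passed the limma test. Their part in the members' values was not tested.

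The members did not share a direction. Egr1, Egr2 and Egr3 had lower ratios with dexamethasone, with differences between -0.85 and -1.13 on the log2 scale. Nab1 and Ier5 had differences of -0.32 and -0.37, and the averaged differences of Egr4, Nab2, Ier2, Ier3 and Srf were above 0. In 5 of the 10 members (Egr1, Egr2, Egr3, Nab1 and Ier5) all 3 dexamethasone values lay below all 3 vehicle values, against 6.42% of all genes and unnamed probes. In Ier3 alone all dexamethasone values lay above, as in 10.4% of all. None of these differences passed the test: limma called 0 of the 10 members at a Benjamini-Hochberg adjusted p under 0.05, as it called 0% of all 27046, and 3 members (Egr1, Egr2 and Egr3) were lower and 0 higher by an unadjusted p under 0.05, against 0.995% and 4.43% of all. That count of 3 was 4 after median centring (with Ier5), 2 with the array set or the replicate number as a block (without Egr3) and 1 after quantile normalization (Egr1). Leaving out any 1 vehicle array gave 2, again without Egr3. Leaving out dexamethasone replicate 1 or 2 kept Egr1, Egr2 and Egr3 and added a higher member, Egr4 (1.26) or Ier3 (0.78) in turn. Over the 10 members the median difference was -0.16, or -0.48 once the median of all is subtracted. The members were chosen with earlier results of these data known, so counts set against shares of all genes or probes are descriptive only.

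Egr2, also known as Krox20, had the lowest difference of the 10 gene averages as deposited. Its log2 ratios were -0.14, -0.41 and -0.29 in vehicle and -1.10, -1.67 and -1.46 in dexamethasone (replicates 1, 2 and 3 in turn). The highest dexamethasone value lay well below the lowest vehicle value. The group means were -0.28 ± 0.13 and -1.41 ± 0.29 (SD, n = 3 each), a 2.18-fold lower ratio with dexamethasone, with a difference of -1.13 ± 0.23 (SE) and a limma adjusted p of 0.440. By unadjusted p Egr2 ranked 247 of 27046, and 2.98% of all differences were as low or lower.

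Egr1, the founding EGR factor and a standard marker of ERK signalling, also had lower ratios on every dexamethasone array. Its ratios were 0.33, 0.26 and 0.19 in vehicle and -0.53, -1.10 and -0.47 in dexamethasone. Vehicle was above the pool on every array and dexamethasone below it. The means were 0.26 ± 0.07 and -0.70 ± 0.35 (SD, n = 3 each), 1.95-fold lower with dexamethasone, a difference of -0.96 ± 0.24 (SE) with a limma adjusted p of 0.635. Of all differences, 3.78% were as low or lower.

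Egr3, a close relative that binds the same GC-rich site, rested on probes that disagreed in size. Averaged over its 2 probes, the ratios were 0.05, 0.02 and 0.01 in vehicle and -0.49, -1.34 and -0.63 in dexamethasone, 1.80-fold lower (limma adjusted p = 0.732). Probe mMC006843 gave 0.39, 0.29 and 0.42 in vehicle against -0.62, -1.76 and -1.06 in dexamethasone, a difference of -1.51 ± 0.33 (SE). Probe mMR028257 gave -0.28, -0.26 and -0.41 against -0.36, -0.92 and -0.21, a difference of -0.18 ± 0.24 (SE). The groups were apart on the first probe and overlapped on the second, so the value for the gene depends on which probe is read.

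Egr4, the EGR factor that lacks the NAB-binding region, did not follow the other EGR genes. Its ratios were -0.44, 0.07 and -0.09 in vehicle and -0.72, 1.41 and 0.81 in dexamethasone. Dexamethasone replicate 1 was below every vehicle array and the other dexamethasone arrays were above them. The difference was 0.65 ± 0.60 (SE), with a limma adjusted p of 0.734. Leaving out dexamethasone replicate 2 gave 0.20, and leaving out dexamethasone replicate 1 gave 1.26.

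**Figure D1:**
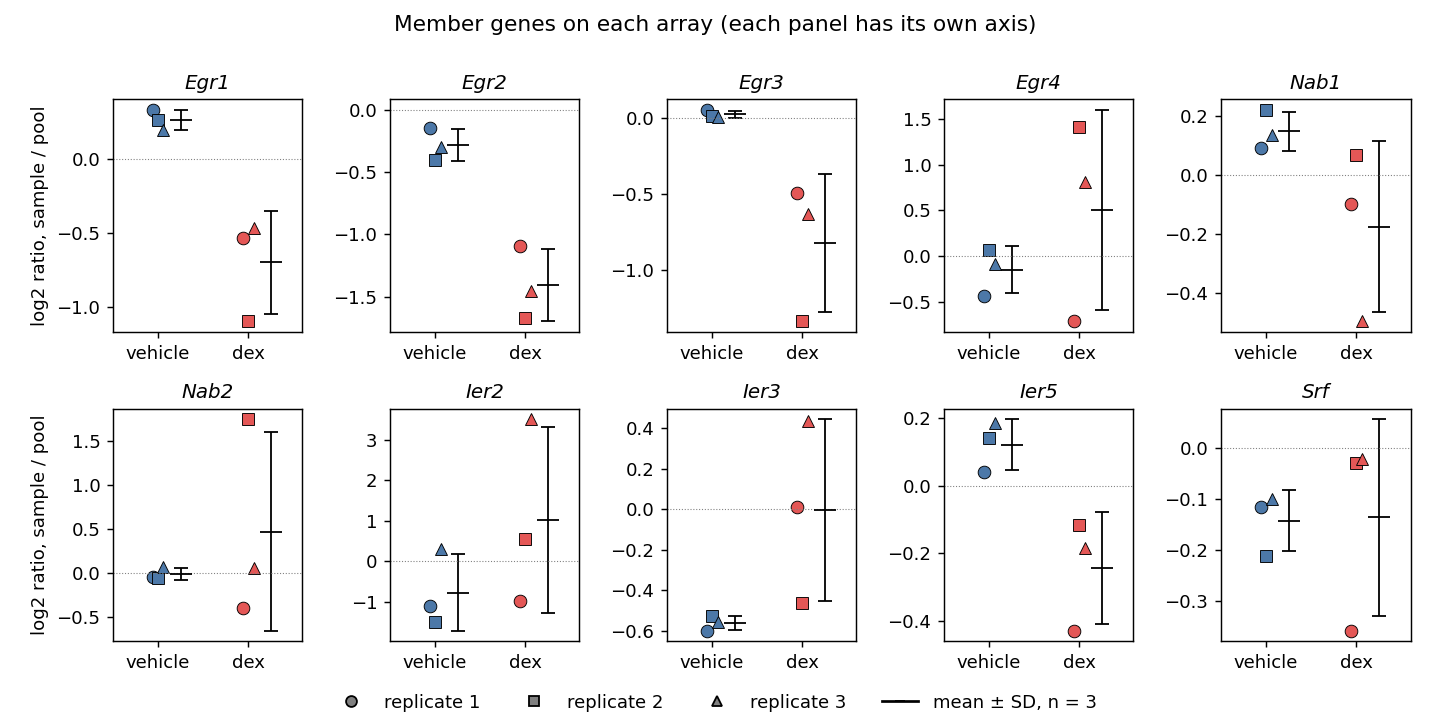
Log2 ratio of sample over pool on each of the 6 arrays for the 10 member genes, averaged over the probes of a gene, with vehicle in blue, dexamethasone in red, a marker shape for each replicate number and bars for the mean ± SD (n = 3). The dexamethasone points of Egr1, Egr2 and Egr3 lie below all vehicle points, while those of Egr4 and Nab2 reach beyond the vehicle points in both directions and those of Ier2 reach above them; each panel has its own vertical axis.

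The NAB corepressors gave small or unstable differences. Nab1, averaged over 4 probes, had ratios of 0.09, 0.22 and 0.13 in vehicle and -0.10, 0.07 and -0.50 in dexamethasone. The groups did not overlap, but dexamethasone replicate 2 was only just below the lowest vehicle array. The difference was -0.32 ± 0.22 (SE), 1.25-fold lower, with a limma adjusted p of 0.732, and -0.16 when dexamethasone replicate 3 was left out. Its 4 probes gave differences of -0.70, 0.18, -0.28 and -0.50, and on 2 of them (mMC022186 and mMR030039) the groups were apart, with lower dexamethasone values. Over the 17 member probes, 6 had all dexamethasone values below all vehicle values and 1 had them all above, against 7.44% and 10.8% of all probes.

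Nab2, the EGR-induced corepressor, turned on a single value. Probe mMC010007 gave -0.03, -0.13 and 0.14 in vehicle, and -0.53 and 4.0 in dexamethasone replicates 1 and 2, with no value in replicate 3. Probe mMR028079, measured on all arrays, gave -0.06, 0.03 and 0.01 in vehicle and -0.25, -0.50 and 0.06 in dexamethasone, a difference of -0.22 ± 0.20 (SE). Averaged, the gene had a difference of 0.48 ± 0.60 (SE; limma adjusted p = 0.777), in which dexamethasone replicate 3 came from mMR028079 alone. Without dexamethasone replicate 2 the difference was -0.16, and it was -0.22 when probes with a missing or low-signal value were left out. No direction can be read for Nab2 from the averaged value.

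The IER genes went different ways. Ier5 had ratios of 0.04, 0.14 and 0.18 in vehicle and -0.43, -0.12 and -0.19 in dexamethasone. All vehicle arrays were above the pool and all dexamethasone arrays below it. The difference was -0.37 ± 0.18 (SE), 1.29-fold lower, with a limma adjusted p of 0.732.

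Ier3, also called IEX-1, had ratios of -0.60, -0.53 and -0.56 in vehicle and 0.01, -0.46 and 0.44 in dexamethasone. Dexamethasone replicate 2 stood just above the vehicle arrays and the other 2 dexamethasone arrays well above them. The difference was 0.56 ± 0.28 (SE), 1.47-fold higher, with a limma adjusted p of 0.732, and 0.34 when dexamethasone replicate 3 was left out. It exceeded the median difference of all genes by 0.24. Of its 2 probes, mMC012054 kept the groups apart (0.63 ± 0.21, SE) and mMA031687 did not (0.48 ± 0.34, SE). With every array centred on its own median the groups overlapped and the difference was 0.25.

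Ier2, also called Pip92, had the widest spread of the members. Its single probe gave -1.10, -1.49 and 0.30 in vehicle and -0.99, 0.54 and 3.50 in dexamethasone. The groups overlapped, and in each group the array or arrays with many low-signal values were the high ones. The Ier2 probe itself had no missing or low-signal value on any array. The part of low signal in this result was not tested. The difference was 1.79 ± 1.27 (SE), with a limma adjusted p of 0.732. It was 0.54 when dexamethasone replicate 3 was left out and was 2.79 when dexamethasone replicate 1 was left out.

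The difference of Srf itself was smaller than its spread. Its ratios, averaged over 2 probes, were -0.12, -0.21 and -0.10 in vehicle and -0.36, -0.03 and -0.02 in dexamethasone. Dexamethasone replicate 1 was below and the other 2 dexamethasone arrays above the vehicle arrays. The difference was 0.0062 ± 0.19 (SE; limma adjusted p = 0.991), and its probes gave 0.14 ± 0.26 and -0.13 ± 0.24 (SE). An exact permutation test of 3 against 3 arrays cannot go below 0.1 for any member, so none was used.

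**Figure D2:**
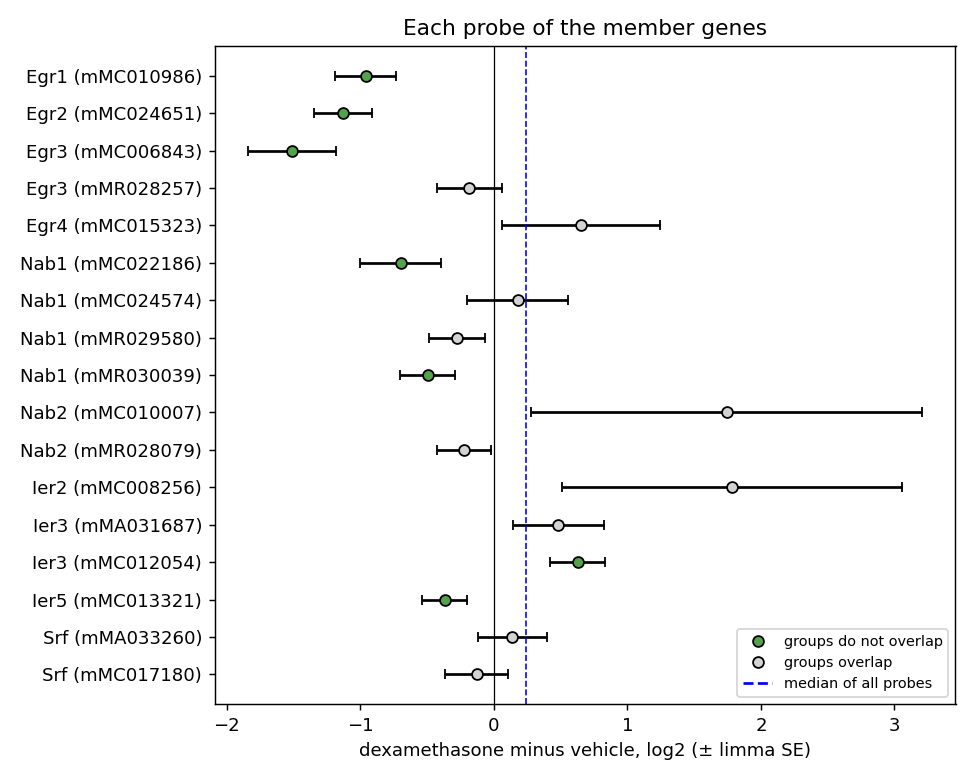
Dexamethasone minus vehicle on the log2 scale for each of the 17 member probes, with bars for the limma SE from a fit over all probes, green where the groups do not overlap and grey where they do; the dashed line is the median of all probes at 0.24. The probes of Egr1 and Egr2 and probe mMC006843 of Egr3 stand lowest, and the paired probes of Egr3 and Nab2 lie apart from each other.

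The unequal arrays were set beside these differences. Values equal to a ratio of whole numbers from 1 to 10, as faint spots can give, made up under 5% of vehicle replicates 1 and 2 and dexamethasone replicate 1 and over 5% of the other 3 arrays. Within the first set of arrays the median difference of all genes was -0.05 and within the second set 0.25. Egr1 differed by -0.83 in the first set and -0.97 in the second, Egr2 by -0.82 and -1.27, and Egr3 by -0.53 and -0.99. Nab1 (-0.25 and -0.35), Ier5 (-0.52 and -0.34) and Ier3 (0.57 and 0.54) also kept their sign across the sets. Ier2 gave 0.31 and 1.73, whereas Egr4 (-0.53 and 1.20), Nab2 (-0.34 and 0.83) and Srf (-0.20 and 0.08) changed sign. In each set 1 of the groups had a single array, so these values carry no test. With the array set as a block, the limma adjusted p was 0.63 for Egr2, 0.761 for Egr1 and 0.853 for Egr3.

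The members were also read relative to all genes. As deposited, Egr1, Egr2 and Egr3 stood at -1.28, -1.45 and -1.17 relative to the median of all genes, and over the 15 other settings these values ran from -1.95 to -0.91, from -1.85 to -1.14 and from -1.58 to -0.73. Nab1 stood at -0.64 and Ier5 at -0.69. Before this subtraction, quantile normalization gave -1.98 for Egr1, -1.52 for Egr2, -1.58 for Egr3, -0.91 for Nab1 and -0.80 for Ier5, and centring gave -0.63 for Nab1 and -0.67 for Ier5. With every array centred on its own median, 4 of the 10 members (Egr1, Egr2, Egr3 and Ier5) kept all dexamethasone values below all vehicle values, against 3.82% of all genes and unnamed probes. After quantile normalization between arrays these were 2, Egr1 and Ier5, against 3.62% of all, since dexamethasone replicate 1 then lay above vehicle replicate 3 in Egr2 and Egr3. Centring lowered the median of all genes by 0.30 and quantile normalization lowered it by 0.35, in each case bringing it close to 0. When probes with a missing or low-signal value on any array were left out, limma called 29 of 17152 genes and unnamed probes (0.169%), none of them a member; Egr2 then had an adjusted p of 0.234 and Egr1 of 0.385.

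**Figure D3:**
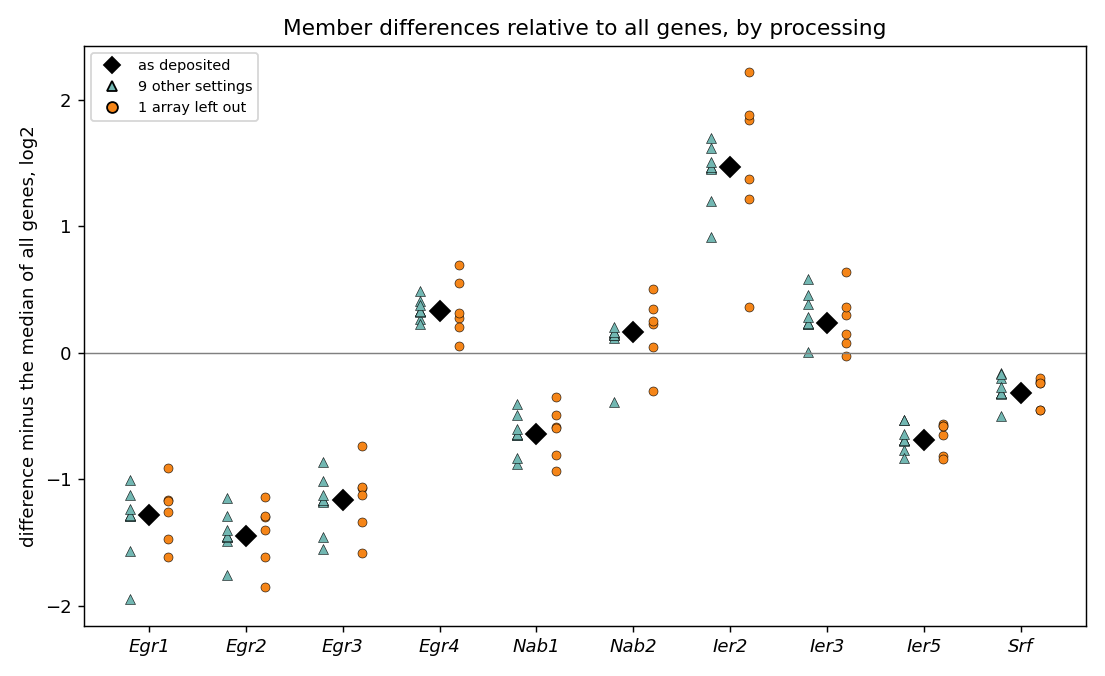
Difference of each member gene minus the median of all genes (log2), as deposited (black), under 9 other settings (triangles) and with 1 array left out at a time (circles). Egr1, Egr2, Egr3, Nab1, Ier5 and Srf stay below the median of all genes under every setting shown, Egr4 and Ier2 stay above it, and Nab2 and Ier3 lie on both sides.

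Other genes of the serum response were read from lists chosen with earlier results of these data known. As deposited, 0 genes of these 5 lists passed the limma test after adjustment (Dusp1 passed with the low-signal filter). The counts that follow therefore use an unadjusted p under 0.05. By that p, 4.43% of all genes and unnamed probes were higher and 0.995% lower. No list's count was tested against these shares, and the lists are small. Of 30 immediate early genes, 10 had higher and 2 lower values by that p, and the list's median difference was 0.42 against 0.32 for all genes. The 3 with the smallest p were Dusp1, a phosphatase of MAP kinases and a known glucocorticoid target (-2.79 ± 0.11 against 1.46 ± 0.12, SD, n = 3 each), Ccn1, a secreted matrix protein (-0.89 ± 0.13 against 0.52 ± 0.18), and Zfp36, which destabilises mRNAs (-0.68 ± 0.06 against 0.84 ± 0.26). The lower pair, Klf10 (-1.23 ± 0.23, SE) and Klf4 (-0.66 ± 0.17, SE), was named after its values were seen. The immediate early list thus held genes with differences of either sign, like the members.

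Of 10 measured Srf partners, 0 were higher and 1 was lower, against 4.43% and 0.995% of all. That gene was Elk3, a ternary complex factor, with 0.08 ± 0.05 under vehicle and -0.42 ± 0.11 under dexamethasone (SD, n = 3 each) and a difference of -0.50 ± 0.17 (SE). The cofactor genes Myocd (1.09 ± 0.43, SE) and Mrtfa (0.42 ± 0.21, SE) had differences above 0, with limma adjusted p of 0.732 for each of these 3 genes. Of 18 cytoskeletal genes that Srf controls with its myocardin-related cofactors, 1 was lower and 0 were higher, and their median of 0.0010 lay at -0.32 relative to all genes. The lower gene was Filip1l (0.42 ± 0.12 against -0.65 ± 0.22, SD, n = 3 each), while Actn1 (0.89 ± 0.61, SE) and Vcl (-0.22 ± 0.18, SE) followed by p with overlapping groups.

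Of 15 measured genes known to be controlled by EGR factors, the member Nab2 among them, 1 was higher and 1 lower. Of all genes and unnamed probes, 4.43% were higher and 0.995% lower. The median of these 15 was 0.10. Sphk1, a lipid kinase gene, stood at -0.74 ± 0.05 with vehicle and 0.32 ± 0.34 with dexamethasone, and Pdgfa, a growth factor gene, at 0.05 ± 0.05 and -0.40 ± 0.10 (SD, n = 3 each). Igf2, next by p, differed by 1.66 ± 0.75 (SE). Of 15 measured genes of the ERK cascade and its receptors, Rps6ka5 was higher (0.87 ± 0.32, SE), 0 were lower, and Pdgfrb (-0.46 ± 0.22, SE) and Braf (0.49 ± 0.25, SE) followed by p. The limma adjusted p of these 6 genes was 0.528 for Sphk1 and 0.732 for the others.

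**Figure D4:**
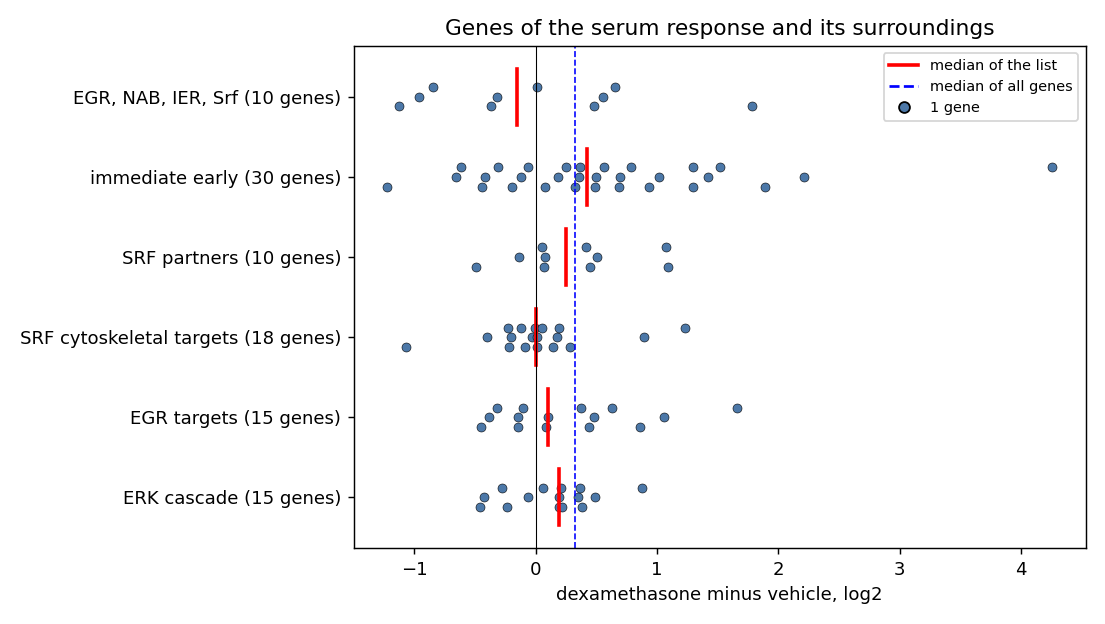
Dexamethasone minus vehicle (log2) for each measured gene of the members and of 5 other lists, 1 point per gene, with a red line for the median of a list and a dashed line for the median of all genes at 0.32. Nab2 appears both as a member and among the EGR targets. Of the lists shown, the members have the lowest median, at -0.16, while the mesenchymal markers, which are not shown, had a median of -0.32. The immediate early genes spread from -1.23 for Klf10 to 4.26 for Dusp1.

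The genes whose 6 values were most like those of Egr1, by the root mean square difference of the log2 ratios over the 6 arrays among 16509 other genes measured on all arrays, were Twist1 (0.157), Nr3c1 (0.159), Rflnb (0.170), Fas (0.188) and Mfsd1 (0.195). Twist1 encodes a mesenchymal transcription factor and Nr3c1 the glucocorticoid receptor. Nr3c1 stood at 0.24 ± 0.08 in vehicle and -0.64 ± 0.54 in dexamethasone, and Fas, a death receptor, at 0.30 ± 0.06 and -0.86 ± 0.20 (SD, n = 3 each). For Egr2 they were Ptgs2 (0.227), Tgif1 (0.244), Pir (0.307), Was (0.364) and Mcmdc2 (0.389). Ptgs2, which encodes cyclooxygenase-2, stood at -0.16 ± 0.16 in vehicle and -1.43 ± 0.08 in dexamethasone, and Tgif1, a repressor of TGF-beta responses, at 0.02 ± 0.02 and -1.36 ± 0.12 (SD, n = 3 each). In all 5 genes nearest Egr1 and in 3 of the 5 nearest Egr2, all dexamethasone values lay below all vehicle values, a property the choice by likeness favours.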

How the data were processed

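The table holds 1 column per array for 38467 probes. The deposited table states no scale; log2 ratios were assumed because values are signed and often equal the log2 of ratios of small whole numbers; on 4 arrays a few values exceed 100 in size, so those columns are, strictly, a deposited score that is not a log2 ratio throughout. The submitters' processing notes name limma; how spots were filtered, background-corrected or normalized was not stated in any label or header. Probes were named through the supplied platform annotation (30216 listed, 760 with several symbols left as unnamed probes). Probes of a gene were averaged and at least 2 values per group were needed. The fit was limma 3.58.1 (lmFit, eBayes) in R 4.3.3, two-sided, Benjamini-Hochberg over all 27046, threshold 0.05, with no block, and was tested on simulated data. The low-signal filter left out 15355 probes that on any array were missing, beyond 10 in size, or equal at 3 decimals to the log2 of a ratio of whole numbers from 1 to 10. Genes named beside the members were the 3 smallest p per list, the 5 nearest Egr1 and Egr2, and the 6 direction targets; the mesenchymal markers, Klf4 and Klf10 fall outside that rule. The members and lists were chosen with earlier results of these data known. Precision is limited by the number of arrays, and p-values measure the spread between these arrays. Alternatives were each probe separately, centring, quantile normalization, the low-signal filter, values beyond 10 set to missing, complete values only, a replicate block, an array-set block, array weights, a robust prior and leaving out each array.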

Additional observations from a re-analysis of the deposited data

How the results depend on the processing

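The count of genes called, 0 as deposited, was 29 with the low-signal filter and 5 when values on all 6 arrays were needed, and 0 under the other settings, including each array left out in turn (range 0 to 0). At an unadjusted p under 0.05 there were 1468 as deposited, and from 695 without vehicle replicate 2 to 6947 without dexamethasone replicate 1. The count of members called was 0 under every setting run. The median difference over the members, -0.16, was -0.47 after median centring and -0.51 after quantile normalization, and ran from -0.29 to -0.08 with 1 array left out (relative to all genes, -0.48 as deposited, from -0.65 to -0.29 with 1 array left out and -0.28 with the array set as a block). The median of all genes itself ran from 0.147 to 0.570 with 1 array left out. Srf turned to -0.30 after median centring, -0.23 after quantile normalization and -0.060 with the array set as a block, and ran from -0.051 to 0.12 with 1 array left out; Nab2 turned to -0.22 with the low-signal filter and ran from -0.16 to 0.91. The cause was not tested. The lowest limma adjusted p was 0.0659 for Egr2, 0.0971 for Egr4, 0.102 for Egr1 and 0.113 for Egr3, each without dexamethasone replicate 1. In that fit Egr4 was higher with dexamethasone (1.26) and the other EGR genes lower. Low p-values were widespread there, with 6947 of 23822 genes and unnamed probes at an unadjusted limma p under 0.05.

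Whether the shared replicate numbers pair the arrays could not be decided. Deviations from the group means correlated at 0.28, -0.17 and 0.35 (Spearman, across 22880 genes, which are not independent) for numbers 1, 2 and 3. For unmatched numbers the coefficients ran from -0.46 to 0.33. All coefficients were positive between arrays of the same whole-number-ratio set and negative across the sets, so they cannot settle pairing. With the replicate block 0 genes and 0 members were called, the median over the members was -0.16 and the adjusted p of Egr2 was 0.711. Signal over background was not used here, so how far it limits vehicle replicate 3 and dexamethasone replicates 2 and 3, which held the most whole-number ratios, is not known.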
